A study of Mus musculus with 12 samples.

Results

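Proliferins are secreted hormones of the prolactin family, and the mouse genes for them carry symbols that begin with Prl2c. All genes with such a symbol in the C2C12 count table were taken, which gave 4 genes of 55385, Prl2c1, Prl2c2, Prl2c3 and Prl2c5. They had been picked because their counts were lower in myotubes, so that difference is given here as a description, without a test. C2C12 is an established mouse myoblast line that fuses into multinucleate myotubes. Total RNA was sequenced from 3 libraries of C2C12 myotubes after 7 days of differentiation and 3 libraries of undifferentiated C2C12 cells, with no other agent or allele named for either group. The labels name 1 cell line and nothing on whether replicates were grown separately, so p-values measure only the spread between these libraries, which may be technical. The series also holds embryonic stem cell libraries, whose tables list only SNORA families of small nucleolar RNA and no Prl2c gene.

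Proliferins are glycoproteins made in the mouse by trophoblast giant cells of the placenta and, after serum or growth factors, by growing fibroblast lines. They carry mannose 6-phosphate and bind the mannose 6-phosphate and insulin-like growth factor II receptor encoded by Igf2r, and placental proliferin is known to draw endothelial cells into new vessels. In cultured mouse muscle cells, forced proliferin has been reported to hold back muscle gene expression. The proliferin promoter is a textbook case of a composite element that both the transcription factor AP-1 and the glucocorticoid receptor bind.

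Of the 4 genes, 3 lie together on chromosome 13 and 1 lies apart (annotation of GRCm38.p6, the assembly of the build mm10 named for the files). Prl2c3 spans chr13:12790816-12800093, Prl2c2 spans chr13:12996120-13005393 and Prl2c5 spans chr13:13182703-13191930. Gaps of 196 and 177 kb separate neighbouring copies. Prl2c1 spans chr13:27849341-27857791, inside the main prolactin cluster, which holds 23 Prl genes and begins 13.9 Mb from Prl2c5. RefSeq promoter sequences, 250 bases before to 50 after the annotated start, matched 2 of the 4 genes, Prl2c3 and Prl2c5. They are shown because these copies share almost their whole promoter and yet differ widely in the counts assigned to them. The copies are nearly identical and the split of reads between them is uncertain, so the size of that difference is uncertain too. Whether it is tied to the promoter sequence was not tested. Capitals mark matches to the AP-1 motif TGANTCA and to the TATA motif TATANAA, searched on both strands. Both are written 5′ to 3′ in the direction of the gene, Prl2c3 from the minus strand of chr13:12800030-12800329 and Prl2c5 from the plus strand of chr13:13182466-13182765.
Prl2c3: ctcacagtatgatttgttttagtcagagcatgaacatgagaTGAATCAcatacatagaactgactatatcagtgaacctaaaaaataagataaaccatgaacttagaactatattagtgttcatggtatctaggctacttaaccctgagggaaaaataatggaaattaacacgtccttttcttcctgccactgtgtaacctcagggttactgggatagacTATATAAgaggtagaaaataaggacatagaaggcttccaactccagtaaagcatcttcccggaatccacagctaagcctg
Prl2c5: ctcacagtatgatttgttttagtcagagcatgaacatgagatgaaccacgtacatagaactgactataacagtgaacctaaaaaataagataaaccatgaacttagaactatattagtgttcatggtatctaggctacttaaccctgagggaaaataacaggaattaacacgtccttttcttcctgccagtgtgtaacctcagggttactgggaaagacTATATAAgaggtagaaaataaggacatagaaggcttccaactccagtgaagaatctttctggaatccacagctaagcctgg

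In a global alignment the promoters were identical in 287 of 301 columns (95.3%), with 12 substitutions and 2 gap columns. Both held the TATA motif, 30 bases before the start in Prl2c3 and 31 in Prl2c5, as did 11.3% of all 32851 promoters of the same length. The Prl2c3 promoter held 1 AP-1 match, TGAATCA, at 209 bases before the start, as did 7.81% of all promoters. In Prl2c5 the substitution T46C, counted from 1 at the 5′ end of the Prl2c3 window with the Prl2c3 base first, falls within that match, and the window held none. Neither window held the glucocorticoid half-site AGAACA (found in 19% of promoters) or the E-box CANNTG (72.3%) that myogenic factors bind. The motifs were chosen after the sequences were seen, and a match or its lack describes letters only.

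Levels are given as CPM, reads of a gene scaled to a fixed library total after TMM normalisation. Library totals ranged from 18335785 to 31119511 counts in myotubes and from 22200097 to 54083215 in myoblasts. Myotube and mitosis markers followed the labels, and the myoblast list did not move one way. All 16 myotube markers were higher in myotubes, and 17 of 18 mitosis genes were lower (edgeR quasi-likelihood test, Benjamini-Hochberg adjusted p under 0.05). Myog, the myogenin gene, rose by 6.08 ± 0.65 (SE, adjusted p = 0.000441), while Myod1 was not called (-0.50 ± 0.57, 0.502) except with the replicate block (-0.67, 0.0457). Of 9 myoblast markers tested, 1 was lower in myotubes (Myf5, -1.76 ± 0.30) and 3 were higher (Des, Itga7 and Ncam1, by 1.83, 1.85 and 1.54), with a median log2 fold change of 0.65. Over all tested genes 20.5% were called higher and 19.6% lower. With only 9 markers, the myoblast counts are not set apart from these shares. Markers of endothelial and blood cells summed to at most 1.73 and 2.51 CPM in myotubes and 0.852 and 3.33 CPM in myoblasts, and adipocyte markers to at most 25.9 and 31.8 CPM. Myotube replicate 1 stood apart from the other myotube libraries, with a median mitosis level of 6.05 log2 CPM against 4.26 and 3.84, and a median myotube marker level of 8.18 against 9.31 and 9.30. In bulk RNA, fewer cells of a type and less RNA per cell cannot be told apart.

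Proliferin RNA was abundant in myoblasts and close to undetected in myotubes. Prl2c3 (ENSMUSG00000056457.6), with the RefSeq synonym Plf2, had 10, 1 and 13 counts in myotubes, against 4990, 8129 and 4734 counts in myoblasts. These equal 0.387, 0.0326 and 0.754 CPM in myotubes and 83.4, 198 and 222 CPM in myoblasts. Every myotube library lay below every myoblast library, and the lowest myoblast library was replicate 1. The ratio of the group totals was 449-fold lower in myotubes, with a 95% counting interval of 302 to 701, which covers counting error only. The fitted log2 fold change was -8.91. It was -9.71 without myotube replicate 3 and -8.28 without myotube replicate 2, the libraries with the most and the fewest Prl2c3 counts in their group.

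Prl2c2 (ENSMUSG00000079092.4), with the RefSeq synonym Plf, had 1, 1 and 2 counts in myotubes, against 752, 1632 and 780 in myoblasts. Its level was 0.0387, 0.0326 and 0.116 CPM in myotubes and 12.6, 39.7 and 36.6 CPM in myoblasts. The groups again did not overlap, and myoblast replicate 1 was again the lowest of its group. The ratio of group totals was 478-fold lower in myotubes, and with only 4 myotube counts its interval ran from 186 to 1754. The fitted log2 fold change was -8.98, or -9.58 without myotube replicate 3.

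Prl2c5 (ENSMUSG00000055360.13), with the RefSeq synonym Mrpplf4, had 0 counts in each myotube library, against 76, 115 and 52 counts in myoblasts. That is 1.27, 2.80 and 2.44 CPM in myoblasts. Against a floor of 3 counts over the myotube group (0.0407 CPM), Prl2c5 was at least 48.9-fold lower in myotubes. Prl2c1 (ENSMUSG00000062551.13), the copy in the main cluster, had 0 counts in myotubes and 1 count in each myoblast library. It did not pass the filter on low counts, and both groups were at or under the floor, so no fold is given.

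Summed over the 4 genes, proliferin counts were 11, 2 and 15 in myotubes and 5819, 9877 and 5567 in myoblasts. The sum averaged 0.453 ± 0.403 CPM in myotubes and 200 ± 89.2 CPM in myoblasts (SD, n = 3 each). In myoblasts this was 0.0108%, 0.0256% and 0.0251% of all counts. The ratio of totals was 458-fold lower in myotubes (95% counting interval 317 to 690), and the fitted log2 fold change was -8.93, or -9.72 without myotube replicate 3. Myotube replicate 1, with the highest mitosis level of its group, had a summed level of 0.425 CPM, between 0.0652 CPM in replicate 2 and 0.869 CPM in replicate 3. The part of residual dividing cells in these counts was not tested. All 3 members that passed the filter were lower in myotubes without overlap, against 27.2% of the 15932 tested genes, and 19.6% of tested genes were called lower. The rule used this contrast, so nothing is read from that count.

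**Figure D1:**
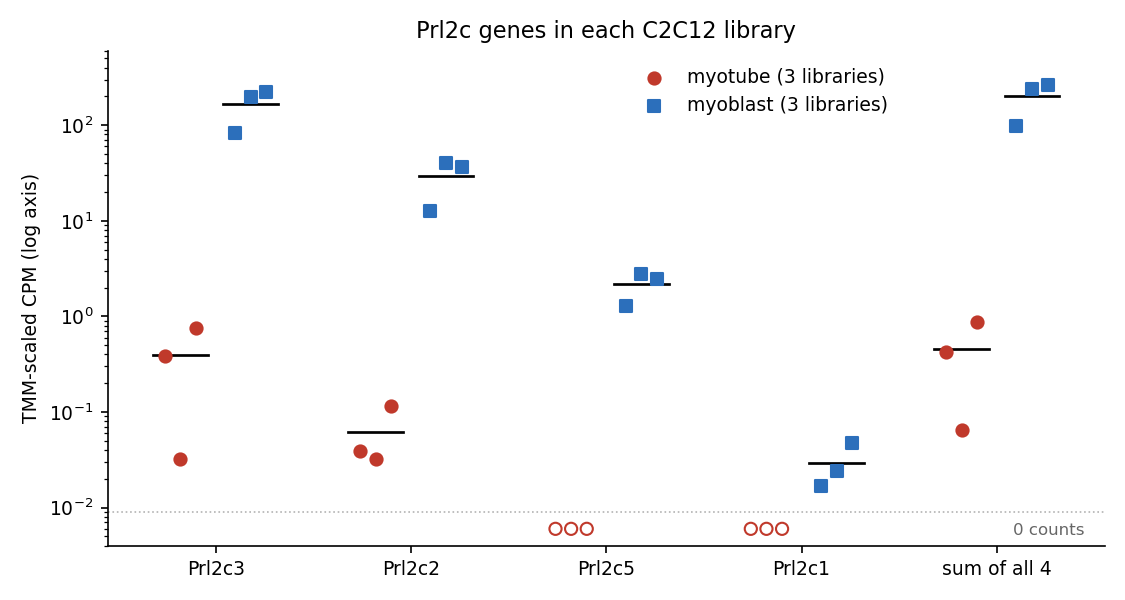
Level of each Prl2c gene and of their sum in every C2C12 library, as TMM-scaled CPM on a log axis. Filled points are libraries (3 per group), lines are group means, and open points under the dotted line are libraries with 0 counts. The summed level lies at or below 0.869 CPM in myotubes and at or above 97.2 CPM in myoblasts.

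The copies contributed unequally, and in the same order in each myoblast library. Prl2c3 held 85.8%, 82.3% and 85.0% of the family counts in myoblasts, and Prl2c2 held 12.9%, 16.5% and 14.01%. The Wilson 95% intervals of Prl2c2 were 12.1% to 13.8%, 15.8% to 17.3% and 13.1% to 14.9%, so the share in myoblast replicate 2 lay above the others beyond counting error. Prl2c5 held 1.31%, 1.16% and 0.934%. In myotubes Prl2c3 held 10 of 11, 1 of 2 and 13 of 15 family counts, with intervals of 62.3% to 98.4%, 9.45% to 90.5% and 62.1% to 96.3%. Each interval held the myoblast shares, and a shift within it was not detectable at this depth. Per kilobase of deposited gene length (RPKM), Prl2c3 averaged 0.287 ± 0.265 in myotubes and 123 ± 54.5 in myoblasts. Prl2c2 averaged 0.0572 ± 0.0426 RPKM in myotubes and 27.2 ± 13.6 in myoblasts, and Prl2c5 stood at 0 and 1.84 ± 0.680 (SD, n = 3 each). The Prl2c3 level was 5.32, 3.99 and 4.86 times that of Prl2c2 in the myoblast libraries per length, and 56.8, 61.2 and 78.8 times that of Prl2c5. The copies are nearly identical, and how shared reads were counted was not given in the sources used here. The split between copies is therefore uncertain, and the sum is the safer value.

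Among all 15932 tested genes, Prl2c3 ranked 316th by mean RPKM in myoblasts, within the top 1.98%, and 14635th in myotubes. Prl2c2 ranked 1781st in myoblasts and 15793rd in myotubes. Prl2c5 ranked 10131st in myoblasts and 15927th in myotubes. By fitted fold change the 3 proliferin genes held places 4 to 6 from the lowest, in the order Prl2c5, Prl2c2, Prl2c3, where the value of Prl2c5 depends on how counts of 0 are fitted. The 3 genes below them were Igsf5, Ngfr and Serpinb2, with myoblast means of 4.30, 24.1 and 37.3 CPM, all under the level of Prl2c3. Of 6964 genes at 20 CPM or more in each myoblast library, 3 were under 1 CPM in each myotube library. These were Prl2c3, the Hedgehog inhibitor gene Hhip (0.448 CPM in myotubes and 61.5 in myoblasts) and the integrin gene Itgb7 (0.284 and 31.7). These limits and gene names were chosen after the values were seen, and Prl2c2 missed the first limit only in myoblast replicate 1.

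**Figure D2:**
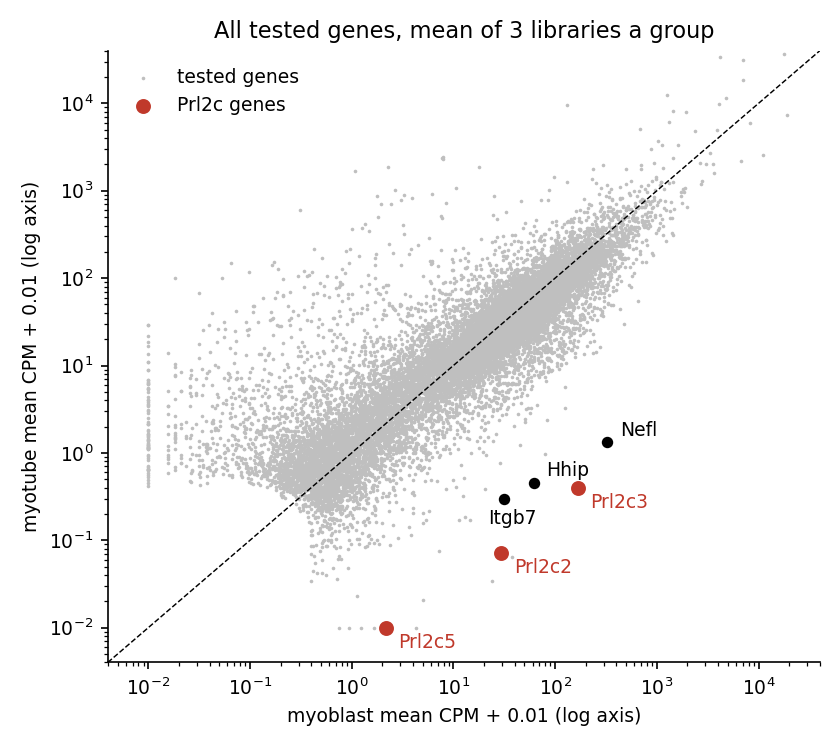
Mean CPM of every tested gene in myotubes against its mean in myoblasts, both with 0.01 added and on log axes (means of 3 libraries a group, dashed line of equality). Prl2c genes are in red. Prl2c3 lies among the genes of high level in myoblasts, at 168 CPM, and at 0.391 CPM in myotubes, with Hhip, Itgb7 and Nefl nearby.

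Other genes of the prolactin and growth hormone family were close to silent in both groups. Of 23 listed, 14 had no count in any library and none passed the filter. Together they had 6 counts in myotubes and 28 in myoblasts. The highest was Prl7a1, with 0 counts in myotubes and 12 in myoblasts. The placental lactogen genes Prl3d1 and Prl3b1 had 0 counts in all 6 libraries, as did Prl, the pituitary prolactin gene. Markers of trophoblast, the placental cell type known for proliferin, were also low. Of 19, 11 had no count in any library, among them Hand1, Gcm1, Cdx2 and Ascl2. The summed level of the list was 19.4 to 43.7 CPM in myotubes and 56.3 to 121 CPM in myoblasts. Nearly all of it came from Peg10, an imprinted gene that is not limited to trophoblast. Peg10 and Tfap2c were the 2 markers tested and both fell, with log2 fold changes of -1.48 and -2.99 (edgeR, adjusted p = 0.0171 and 0.0139). Over all tested genes 19.6% were called lower, and with only 2 tested nothing is read from that count.

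Genes that neighbour the proliferin copies moved in both directions. RefSeq places 28 other genes of the table within 500 kb of the 3 copies, most of them pseudogenes, and 10 were tested. Of these 5 fell and 2 rose, against 19.6% and 20.5% of all tested genes. They were chosen by position after values were seen. Gpr137b, which encodes a lysosomal membrane protein, averaged 14.5 ± 5.39 CPM in myotubes and 80.2 ± 17.1 in myoblasts (log2 fold change -2.47 ± 0.30 with its SE, adjusted p = 0.000657). Its related pseudogene on the other side of the copies, Gpr137b-ps, changed by -1.16 ± 0.18 (adjusted p = 0.0019), though reads of the pair may be split. Nid1, the basement membrane protein nidogen, averaged 183 ± 86.5 CPM in myotubes and 909 ± 384 in myoblasts (log2 fold change -2.31 ± 0.42, adjusted p = 0.00363). The pseudogene Gm2423 fell by 1.80 on the log2 scale (adjusted p = 0.0486), a call lost under the replicate block (0.068) and without any 1 of 5 libraries (0.063 to 0.169), all but myoblast replicate 1. Heatr1, a ribosome assembly gene, fell by 1.34 (adjusted p = 0.0413), a call lost without myotube replicate 3 (0.0632) or any 1 of the myoblast libraries (0.0582, 0.0691 and 0.128). Lyst rose by 1.66 ± 0.20 and the sarcomeric actinin gene Actn2 by 8.03 ± 0.75 (SE, adjusted p = 0.000712 and 0.00027). Between the copies themselves lie 8 pseudogenes of the table, 6 with no count in any library.

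**Figure D3:**
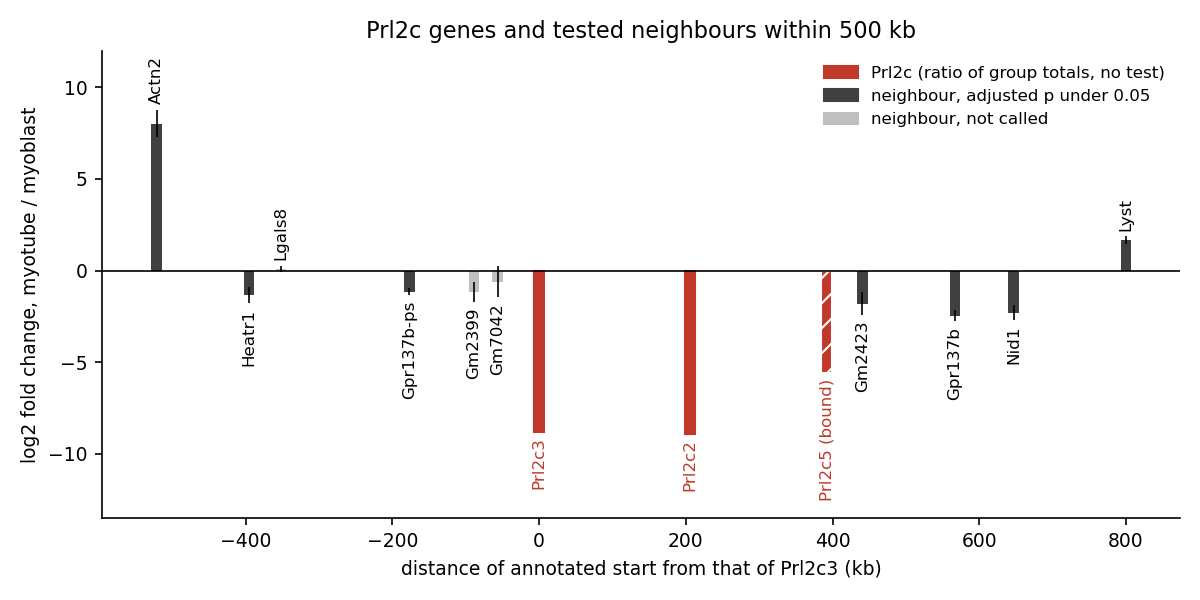
Log2 fold change in myotubes over myoblasts of the proliferin copies (red, from group totals, with the lower-bound value for Prl2c5 hatched) and of tested genes within 500 kb (dark grey where called by edgeR, light grey where not, lines of 1 SE), against distance in kb from the start of Prl2c3. The red bars reach far below those of the neighbours, the lowest of which is Gpr137b at -2.47, while Actn2 and Lyst at the outer ends are above 0.

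Genes that handle proliferin were expressed in both groups. Of 17 tested genes of the mannose 6-phosphate route, 6 rose and 2 fell, against 20.5% and 19.6% of all tested genes. Their median log2 fold change was 0.35, against 0.06 over all tested genes. Igf2r, the receptor that binds proliferin, had 300, 231 and 230 CPM in myotubes, against 138, 92.3 and 90.1 CPM in myoblasts. All myotube libraries lay above all myoblast libraries, with a log2 fold change of 1.25 ± 0.23 (SE, edgeR adjusted p = 0.00382). The smaller mannose 6-phosphate receptor gene M6pr averaged 94.3 ± 13.5 CPM in myotubes and 159 ± 32.7 in myoblasts (SD, n = 3 each; -0.75 ± 0.21, adjusted p = 0.0228). That call was lost without myotube replicate 3 (adjusted p = 0.0745), myoblast replicate 2 (0.0793) or myoblast replicate 3 (0.0778), which left 1 lower gene in each case. Gnptab, catalytic subunit of the enzyme that adds the phosphate tag, fell to 30.9 ± 3.24 CPM in myotubes, against 61.5 ± 4.30 in myoblasts (-0.995 ± 0.16, adjusted p = 0.00244). The lysosomal protease gene Ctsd rose by 1.58 ± 0.25 and the lysosomal membrane gene Lamp2 by 0.86 ± 0.19 (adjusted p = 0.0019 and 0.00861).

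The receptor of prolactin itself was close to undetected. Prlr had 1 count in myotubes and 3 in myoblasts over all libraries. Of 11 tested genes of prolactin and growth hormone receptor signalling, 5 rose and 2 fell, beside 20.5% higher and 19.6% lower over all tested genes (median log2 fold change 0.56). The lower count is about that share. The growth hormone receptor gene Ghr averaged 326 ± 166 CPM in myotubes and 56.3 ± 5.69 in myoblasts (2.53 ± 0.35, adjusted p = 0.0011). The signal transducer gene Stat3 rose by 1.68 ± 0.18 (adjusted p = 0.000352). The feedback inhibitor gene Socs2 rose by 0.64 ± 0.22 (adjusted p = 0.0488), a call lost without each library in turn except myotube replicate 1 (0.0664 to 0.15). Of the same inhibitor family, Socs1 fell by 1.78 and Cish by 2.07 (adjusted p = 0.00639 and 0.0121), and the call of Cish was lost without myotube replicate 2 (0.052). The list's count of higher genes was 2 without myotube replicate 2, myoblast replicate 2 or myoblast replicate 3, and 3 without myotube replicate 3 or myoblast replicate 1. Its count of lower genes was 1 without myotube replicate 2.

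Among the tested AP-1 and related genes, Fosl1 changed most. It encodes Fra-1, a partner of Jun proteins in AP-1. Whether it or the other listed factors act on the proliferin genes in these cells was not tested. Fosl1 had 3.87, 2.41 and 2.38 CPM in myotubes, against 41.8, 46.2 and 83.0 CPM in myoblasts. The groups were far apart, with a log2 fold change of -4.30 ± 0.36 (SE, edgeR adjusted p = 0.000166). Of 10 tested AP-1 and related genes, 3 fell and 2 rose (median log2 fold change -0.12). Over all tested genes 19.6% fell and 20.5% rose, so both counts are near that share. Jun fell to 89.2 ± 14.8 CPM in myotubes, against 153 ± 29.7 in myoblasts (-0.78 ± 0.21, adjusted p = 0.0207). The call of Jun was lost without myotube replicate 3 (0.0543), myoblast replicate 2 (0.0762) or myoblast replicate 3 (0.0693). Atf3, a stress-induced factor that pairs with Jun, fell by 1.83 (adjusted p = 0.00981). Junb rose to 302 ± 61.4 CPM in myotubes, against 177 ± 34.8 in myoblasts (0.77 ± 0.23, adjusted p = 0.029). Fosl2 rose by 0.73 ± 0.19 (adjusted p = 0.0185). The call of Fosl2 was lost without myoblast replicate 2 (0.0624), and that of Junb without myotube replicate 2 (0.107), myotube replicate 3 (0.104), myoblast replicate 2 (0.0942) or myoblast replicate 3 (0.108). The list's count of higher genes was 1 without myotube replicate 2, myotube replicate 3 or myoblast replicate 3, 0 without myoblast replicate 2 and 3 without myotube replicate 1. Jund (-0.29 ± 0.22, adjusted p = 0.31) and Fos (1.10 ± 0.59, 0.168) were not called. Fos was called without myotube replicate 1 (1.496, adjusted p = 0.0249).

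The glucocorticoid receptor gene Nr3c1 averaged 217 ± 103 CPM in myotubes and 115 ± 9.70 in myoblasts (SD, n = 3 each). Its log2 fold change was 0.92 ± 0.31 (adjusted p = 0.0437). Without myotube replicate 1, at 336 CPM against 153 and 164 in the other myotube libraries, it was 0.44 and no longer called (0.0548). The call was also lost without myoblast replicate 1, 2 or 3 (0.0815, 0.115 and 0.134). Of 8 tested genes in a list of steroid receptors and their known targets, 3 rose, Nr3c1 among them, and 1 fell (20.5% and 19.6% of all tested genes). The targets Tsc22d3 and Klf9 were higher by 1.32 ± 0.19 and 1.09 ± 0.18 (adjusted p = 0.00149 and 0.00268). The target gene Fkbp5 fell by 0.87 (adjusted p = 0.00338).

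Genes of the serum and growth factor response, the class that proliferin belongs to in fibroblasts, fell or were not called. Of 21 tested, 10 fell and 0 rose, against 19.6% and 20.5% of all tested genes. Their median log2 fold change was -1.26. At an unadjusted p under 0.05 the count of higher genes was also 0 in edgeR, and DESeq2 called 0. Without myotube replicate 1, 1 gene was called higher. Ccnd1 (cyclin D1) fell to 54.6 ± 39.9 CPM in myotubes, against 652 ± 67.2 in myoblasts (-3.58 ± 0.49, adjusted p = 0.00125), and changed by -4.39 without myotube replicate 1. Myc fell to 24.1 ± 6.48 CPM in myotubes, against 57.8 ± 20.9 in myoblasts (-1.26 ± 0.31, adjusted p = 0.0137). The polyamine synthesis gene Odc1 fell by 1.31 (adjusted p = 0.0131). Plaur, the urokinase receptor gene, was named after its value was seen as the gene of the list that fell most, with 6.73, 5.67 and 4.41 CPM in myotubes, against 83.9, 107 and 186 CPM in myoblasts (-4.48 ± 0.35, adjusted p = 0.000146).

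**Figure D4:**
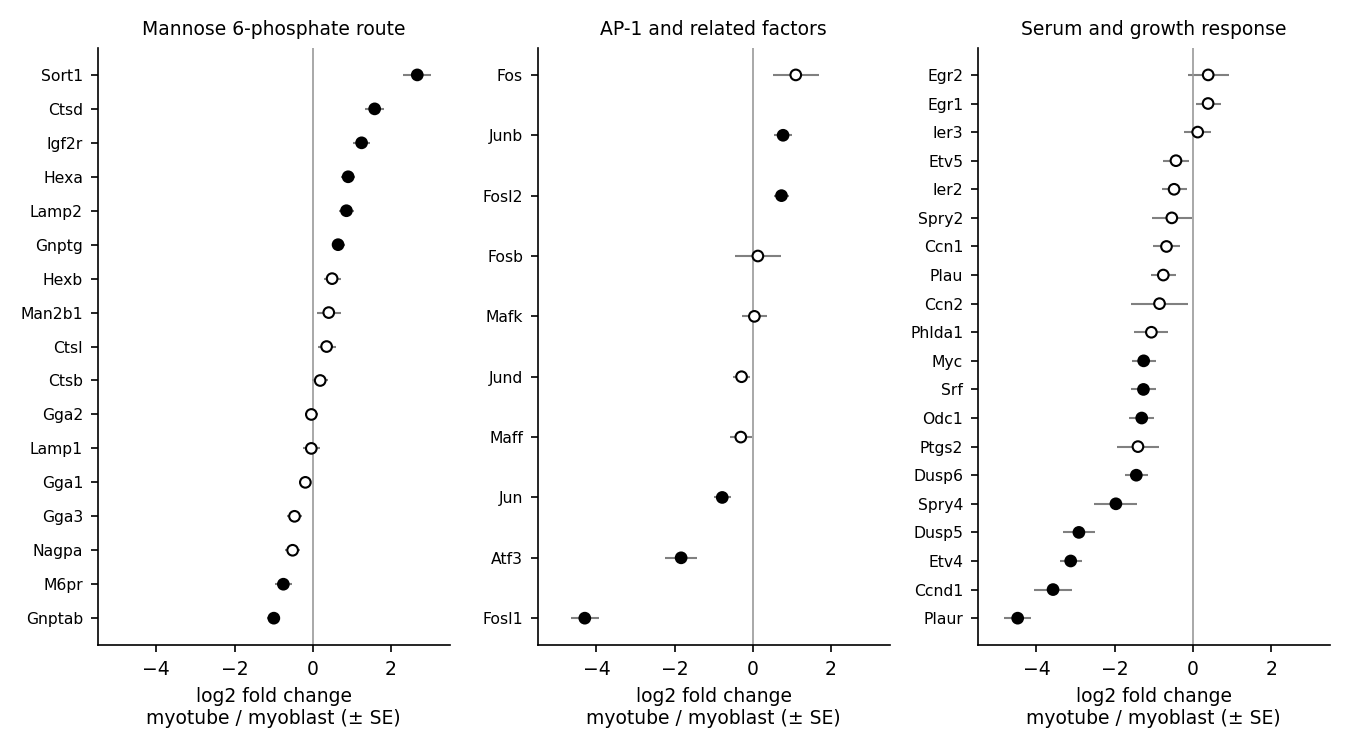
Log2 fold change (myotube over myoblast, ± SE) of tested genes in the lists of the mannose 6-phosphate route, AP-1 factors, and serum and growth response, with 1 gene of the last list not shown. Filled points passed edgeR's test at an adjusted p under 0.05 and open points did not. Fosl1 at -4.30 and Plaur at -4.48 lie lowest in their panels.

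Growth factors with their receptors, and secreted vessel factors, were listed apart from proliferin, and the lists share a gene that rose. In both lists counts of higher genes were above the share over all tested genes, 20.5%. Counts of lower genes were below theirs, 19.6%. Of 21 tested growth factor ligands and receptors 9 rose and 3 fell (median log2 fold change 0.26). Tgfb3 rose to 315 ± 21.1 CPM in myotubes, against 60.1 ± 3.19 in myoblasts (2.39 ± 0.17, adjusted p = 8.93e-05). The receptor genes Tgfbr2 and Pdgfrb rose by 2.01 ± 0.19 and 1.60 ± 0.34 (adjusted p = 0.000252 and 0.00708). Fibroblast markers moved with these genes. Of 7 listed, 5 of 6 tested rose (median 2.78), among them the matrix genes Col1a1 (3.44 ± 0.32) and Dcn (8.01 ± 0.97), and Thy1 was at 0 counts in every library. Their summed level was 2097 to 5305 CPM in myotubes and 779 to 865 CPM in myoblasts. It was highest in myotube replicate 1, where Dcn stood at 1677 CPM against 321 and 339 CPM in the other myotube libraries. Their part in the result was not tested. The ligand gene Areg (amphiregulin) fell to 0.373 ± 0.0417 CPM in myotubes, against 20.5 ± 9.90 in myoblasts (-5.78 ± 0.49, adjusted p = 0.000171). Ereg (epiregulin) fell by 2.38 and Met, the receptor of hepatocyte growth factor, by 0.96 (adjusted p = 0.00506 and 0.0123). Of 18 tested secreted genes with a known part in vessel growth 8 rose and 2 fell (median 0.81). Thbs1, an inhibitor of vessel growth, averaged 8274 ± 529 CPM in myotubes and 1445 ± 455 in myoblasts (2.52 ± 0.32, adjusted p = 0.000801), while Thbs2 rose by 1.25 ± 0.26 and Timp3 by 1.57 ± 0.31 (0.00732 and 0.00571). These genes were named for their level. The other called risers were Vegfa (0.78, adjusted p = 0.0411), Angpt1 (1.41, 0.0119), Fgf2 (1.17, 0.00575), Cxcl12 (2.10, 0.00835) and Adamts1 (0.66, 0.0295). All of these but Adamts1 are known to promote vessel growth, so genes of both kinds rose. Vegfb fell by 1.15 (adjusted p = 0.00495). Col18a1, the source of endostatin, fell by 1.19 (adjusted p = 0.0311), a call held only without myoblast replicate 1 when single libraries were left out (0.0574 to 0.101 otherwise). The list's count of lower genes was 4 with the replicate block and 4 without myotube replicate 1, and 1 without myotube replicate 2 or 3 or myoblast replicate 2 or 3.

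The genes whose profile over the 6 libraries was most like that of the summed proliferin level were ranked by Pearson's r of log2 CPM, among 9659 genes with a mean of at least 3. This is a description, since the points share the difference between groups and the proliferin genes were chosen for it. Of the 9659 genes, 506 had r of at least 0.95, and the first 10 had r between 0.9903 and 0.997. They were Msh3, Wdr92, Zbtb14, Tpm3, Nefl, Retsat, Rfx1, Cobll1, Letmd1 and 4933404O12Rik, all lower in myotubes in edgeR's test. They were picked for a profile that holds the group difference, so nothing is read from their being called. For 9 of the 10 the log2 fold change lay between -1.84 for 4933404O12Rik and -0.52 for Wdr92, so they had the shape of the profile and not its size. The calls of Wdr92, Zbtb14 and Retsat were lost without myotube replicate 2 or 3 or myoblast replicate 2 or 3 (adjusted p of 0.101 to 0.119, 0.0516 to 0.0558 and 0.0541 to 0.0813). That of Wdr92 was also lost under the replicate block (0.0588). Nefl, the light neurofilament gene, had both, with 2.32, 0.326 and 1.28 CPM in myotubes and 166, 375 and 439 CPM in myoblasts. The log2 fold change of Nefl was -7.98, or -8.85 without myotube replicate 1. Each of the first 10 genes was lowest among myotubes in replicate 2, like the proliferin sum. Among myoblasts all but Letmd1 and 4933404O12Rik were lowest in replicate 1, as were 40.8% of all tested genes. The 10 were picked for this profile, so nothing is read from that order. The proliferin sum in myotube replicate 2 rests on 2 counts. Among myotubes Nefl was highest in replicate 1, while the proliferin sum was highest in replicate 3, at 0.869 CPM against 0.425 in replicate 1. By r Nefl ranked 5 for the sum (0.993), 3 for Prl2c3 alone and 172 for Prl2c2 alone (0.983).

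**Figure D5:**
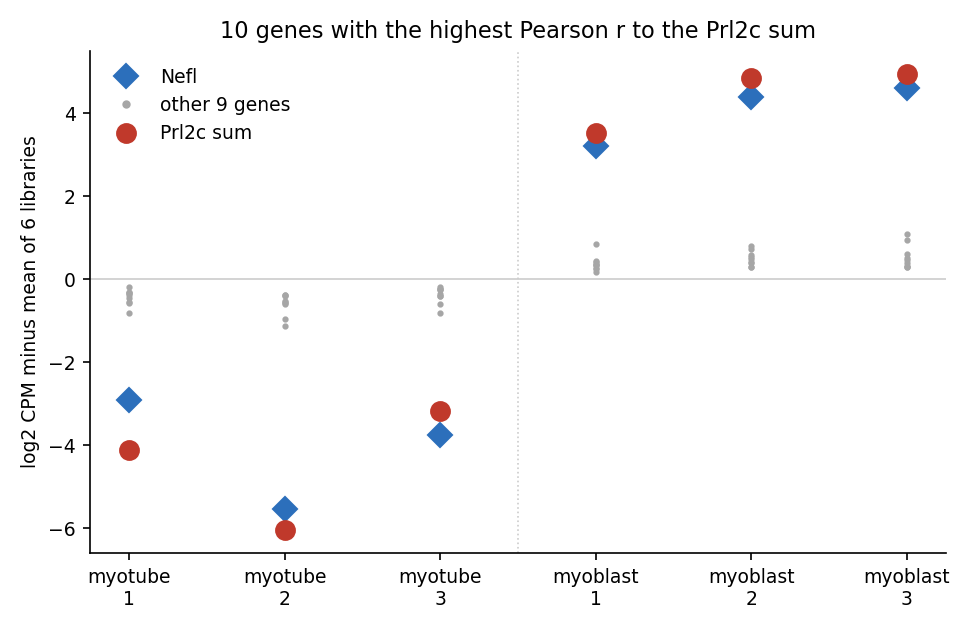
Log2 CPM of the summed Prl2c counts and of the 10 genes most like it, each minus its mean over the 6 libraries, by library. Nefl (diamonds) lies nearer to the Prl2c sum (large circles) in each library than the other 9 genes (small grey points). Those 9 differ between groups by less than 2 log2 units.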

How the data were processed

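RNA-seq of C2C12 cells was used. The authors deposited raw read counts per gene, with a gene length, for 6 libraries, per the file headers. Libraries were made with a stranded, ribosomal RNA-depleting kit, per the labels' protocols. The submitters' processing notes name STAR 2.5.1b, featureCounts 1.5.1 and mm10 among their tools, and settings for strand and multi-mapped reads are not given in the sources used here. Library totals were 18335785 to 54083215 counts.

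Counts were fitted in edgeR 4.0.16 (R 4.3.3) with TMM scaling, its expression filter (15932 genes kept) and the robust quasi-likelihood test, and p-values were Benjamini-Hochberg adjusted over all kept genes at 0.05. The procedure was checked on simulated counts. CPM used TMM-scaled library sizes, and RPKM divided these by the deposited length. Zero groups were set against a floor of 3 counts, and log2 levels used a prior count of 2. Intervals are 95% Wilson for shares and exact binomial for ratios of totals. They cover counting error only and leave out the spread between libraries. Reads had no molecular identifiers, so duplicate reads could make them too narrow.

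The members and gene lists were chosen with earlier results of these data known. Genes were named by fixed roles, by the up to 3 called members per direction with the highest level in each list, and by the 10 highest correlations with the summed proliferin level. Plaur, the other called vessel factors that rose, cell type markers and genes of extreme fold were named after their values were seen. 1 gene that the rule chose is counted in its list and is not reported here by name. Motifs and neighbours within 500 kb were chosen after the values were seen. Myotube and myoblast libraries share replicate numbers in the labels. Same-numbered libraries deviated together, with correlations of 0.232, 0.189 and 0.170, though myotube replicate 2 correlated more with myoblast replicate 3 (0.358), so a fit with the number as a block was also made. Libraries of a group differed beyond counting noise in every pair (lowest chi-square per degree of freedom 94.4). Alternatives were library size alone, DESeq2 1.42.0 size factors and test, no filter, a mean count of at least 50, and leaving out each library. Small RNA and normalised tables were not used here.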

Additional observations from a re-analysis of the deposited data

How the results depend on the processing

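The summed proliferin log2 fold change stayed between -9.72 and -8.35 when any 1 library was left out and was -8.88 with the replicate block. As a difference of mean log2 CPM it was -8.89 with a prior count of 2 and -9.18 with 0.5. Myotube values rest on 28 counts in all, which limits their precision, and Prl2c5 gave no value under a mean count of at least 50. The median over all tested genes was -0.0654 on the log2 scale with library size alone, against 0.0596 with TMM. With library size alone, 4 genes of the mannose 6-phosphate route were lower (2 as reported), 3 of prolactin receptor signalling higher (5), 1 AP-1 gene higher (2), and 2 of the first 10 genes most like proliferin were shared. Ranking by Prl2c2 alone also shared 2, and by Prl2c3 alone 9. A mean count of at least 50 left 1 lower gene in prolactin receptor signalling (2). The replicate block gave 4 lower vessel factors (2) and moved the calls of Myod1, Wdr92 and Gm2423 given above. It changed no other call among the genes named here for which alternatives were run. That leaves out Plaur, Vegfa, Angpt1, Fgf2, Cxcl12, Adamts1, Peg10, Tfap2c and the cell type markers other than Myod1 and Myog. Leaving out 1 library gave 1 to 2 lower genes in the mannose 6-phosphate route, 1 to 3 lower and 2 to 6 higher in prolactin receptor signalling, 0 to 3 higher AP-1 genes, 0 to 1 higher and 7 to 12 lower serum response genes, and 1 to 4 lower vessel factors. Over all genes it gave 2127 to 3517 lower and 2430 to 3599 higher, against 3122 and 3264 as reported. The neighbours Lgals8 and Gm7042, neither of them called, changed sign, Lgals8 to -0.0138 with library size alone and Gm7042 to 0.37 without myoblast replicate 1 (Gm7042 ranged from -1.51 to 0.37 over the libraries left out). The cause of these shifts was not tested. Of 693 alternative values for 58 genes chosen by the naming rule or by position, 623 kept their direction and side of the threshold, 66 lost the call, 2 gained one and 2 reversed.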

Other observations

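Proliferin and the serum and growth response genes were low in the same myoblast library. Among the 3 myoblast libraries, 18 of 21 tested serum response genes had their lowest level in replicate 1, against 40.8% of all tested genes, and the summed proliferin level was also lowest there, at 97.2 CPM against 240.5 and 261 CPM. In myoblast replicate 3, 17 of the 21 had their highest level, against 30.1% of all tested genes, and the summed proliferin level in TMM-scaled CPM was highest there too. As a share of all counts the sum was highest in replicate 2, at 0.0256% against 0.0251% in replicate 3, and Prl2c2 and Prl2c5 were highest in replicate 2 on either scale. The pattern was not limited to the serum response list. The median myotube marker level was also lowest in myoblast replicate 1, at -0.199 log2 CPM against 1.03 and 1.42. Of the 9 myoblast markers, all but Cav1 were lowest there too, with Myod1 at 35.8 CPM against 96.7 and 85.4. Cav1 was lowest in replicate 3. The median mitosis level was 7.80, 7.98 and 7.80 log2 CPM in the 3 myoblast libraries. These libraries are replicates of 1 group, and what set them apart was not tested.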
